A study of Mus musculus with 39 samples.

Results

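The genes described here are 9 genes of mast cells, basophils and eosinophils: Mcpt8, Prss34, Cpa3, Tpsb2, Ms4a2, Fcer1a, Hdc, Tph1 and Epx. They are listed genes, each read from the probe set that the platform annotation gives to that symbol alone, and they are 9 of 22180 genes measured in this way. All 9 had 1 such probe set. They were followed across 13 groups of mice in a study of the microRNA miR-126 in t(8;21) acute myeloid leukaemia. The leukaemias were driven by AE9a, a shortened isoform of the fusion protein AML1-ETO.

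The 3 leukaemia arms were labelled AE9a, AE9a+miR-126 (the fusion with added miR-126) and miR-126KO+AE9a (the fusion with miR-126 knocked out). Each arm was carried through bone marrow transplant recipients for 4 passages with 3 mice per passage, which gives 36 leukaemia arrays. The 3 normal controls (NC) were transplant recipients of the first passage without a listed fusion. In every mouse the transplanted CD45.1+ donor cells had been sorted from the whole marrow at the end stage, so all groups share the transplant and the sort. The labels name no strain, age, vector or promoter, and do not say whether recipients of a group shared a donor or a leukaemia. The p-values therefore measure the spread between recipient mice. Each mouse had its own 1-colour Affymetrix array, and all values are log2 expression, on which a difference of 1 is 2-fold. The number of arrays limits the precision.

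Mast cells and basophils are granulocytes that carry the high-affinity IgE receptor and release histamine, proteases and lipid mediators when it is crosslinked. Eosinophils share part of their ancestry and store cationic proteins in their granules. GATA transcription factors act in all of these lineages, mast cell progenitors arise in the bone marrow and mature in tissues, and basophils mature in the marrow itself.

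The members were ordered by role. Mcpt8 and Prss34 encode proteases of mouse basophil granules, and Epx encodes eosinophil peroxidase. Cpa3, mast cell carboxypeptidase A, and Tpsb2, a tryptase, belong to the mast cell granule, and Cpa3 is also made by basophils and by early progenitors. Ms4a2 and Fcer1a encode the beta and alpha chains of the high-affinity IgE receptor. Hdc makes histamine and Tph1 catalyses the rate-limiting step of serotonin synthesis.

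The microRNA altered in both arms is shown first, since the arms are defined by it. Its mature form, mmu-miR-126a-3p (RefSeq, GRCm38.p6, chr2:26591402-26591423, plus strand), is printed with the seed, bases 2 to 8, in capitals.
mmu-miR-126a-3p: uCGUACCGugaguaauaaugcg

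The probe set annotated to Mir126a together with its host gene Egfl7 read 5.90 to 11.56 in the 12 AE9a+miR-126 arrays, against 2.76 to 3.04 in AE9a, 2.77 to 3.15 in miR-126KO+AE9a and 2.97 to 3.88 in the normal controls. It shows the added microRNA and, being as low in AE9a as in the knockout arm, cannot check the knockout. Ptprc, which encodes CD45, read 9.31 to 11.68 over all arrays. The SD of an array's values over probe sets was under 1.8 in 8 arrays, of which 7 were AE9a+miR-126 arrays (the whole of passage 3, and replicates 1 and 2 at both passage 2 and passage 4) and 1 was miR-126KO+AE9a passage 2, replicate 3. A narrow spread moves with every AE9a+miR-126 difference at passages 2 to 4, and its part in those differences was not tested. Calls of the 9 genes in comparisons that use these arrays are given without them where leaving them out changes the call. For other gene lists averaged over passages, counts or medians are given both ways. Passage 3 of AE9a+miR-126 has no array left without them, and passages 2 and 4 have 1 each. Averages of AE9a+miR-126 against AE9a without them therefore cover passages 1, 2 and 4 in both arms. They are not the same average as over 4 passages. In sorted bulk samples, fewer cells of a type and less RNA per cell cannot be told apart.

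Promoter windows from RefSeq (GRCm38.p6, the 250 bases before the start) matched 8 of the 9 members. The letters GATAA, the core of sites for GATA factors, were searched on both strands, together with TGTGGT for RUNX factors, whose DNA-binding domain the fusion retains, and TTGCNNAA for C/EBP factors. GATAA was present in 4 members (Prss34, Cpa3, Ms4a2 and Fcer1a), while 22.6% of 32851 promoter windows held it. TGTGGT was present in 4 (Mcpt8, Cpa3, Fcer1a and Tph1; 14.0% of windows) and TTGCNNAA in 1 (Fcer1a; 9.56%), and 0 matches overlapped another motif. The windows with GATAA are printed because they include both receptor chains and Cpa3, which are followed together below. They are cut to the bases outside the annotated gene and given on the gene's strand, with GATAA or its reverse complement TTATC in capitals. Prss34 lies at chr17:25298144-25298393 (plus strand), Cpa3 at chr3:20242210-20242431 (minus strand), Ms4a2 at chr19:11623791-11623969 (minus strand) and Fcer1a at chr1:173227233-173227479 (minus strand).
Prss34: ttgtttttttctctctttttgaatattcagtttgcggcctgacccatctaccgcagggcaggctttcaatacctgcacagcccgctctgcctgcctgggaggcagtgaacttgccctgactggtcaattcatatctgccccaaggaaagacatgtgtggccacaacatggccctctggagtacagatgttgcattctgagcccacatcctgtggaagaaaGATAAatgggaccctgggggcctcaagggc
Cpa3: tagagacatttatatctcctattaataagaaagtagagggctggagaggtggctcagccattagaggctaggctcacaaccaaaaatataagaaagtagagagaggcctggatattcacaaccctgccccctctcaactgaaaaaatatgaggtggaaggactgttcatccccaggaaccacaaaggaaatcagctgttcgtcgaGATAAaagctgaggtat
Ms4a2: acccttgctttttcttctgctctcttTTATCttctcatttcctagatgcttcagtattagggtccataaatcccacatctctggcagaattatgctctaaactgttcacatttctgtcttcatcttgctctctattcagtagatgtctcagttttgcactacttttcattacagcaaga
Fcer1a: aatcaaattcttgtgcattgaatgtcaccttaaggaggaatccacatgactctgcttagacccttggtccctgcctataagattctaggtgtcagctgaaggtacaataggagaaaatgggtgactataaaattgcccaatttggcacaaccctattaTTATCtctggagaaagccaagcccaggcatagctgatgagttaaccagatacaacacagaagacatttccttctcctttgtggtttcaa
In Prss34 and Cpa3 the match lay close to the start, at bases -30 to -26 and -45 to -41. Ms4a2 held 3 matches in its full window, of which the 1 at bases -224 to -220 lies in the stretch printed. These matches are a description of letters and not of binding.

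Levels of the 9 genes moved in different ways over the 13 groups. The group means of Cpa3 spanned 7.24 on the log2 scale, those of Tph1 5.79, Ms4a2 4.59, Fcer1a 4.56, Mcpt8 4.52, Hdc 4.42, Tpsb2 3.77, Prss34 3.68 and Epx 2.41. The normal controls were the highest group for Mcpt8, Prss34 and Epx. The second passage of miR-126KO+AE9a was the highest group for the other 6 genes. The lowest group was AE9a+miR-126 passage 4 for Prss34, Cpa3 and Hdc.

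**Figure D1:**
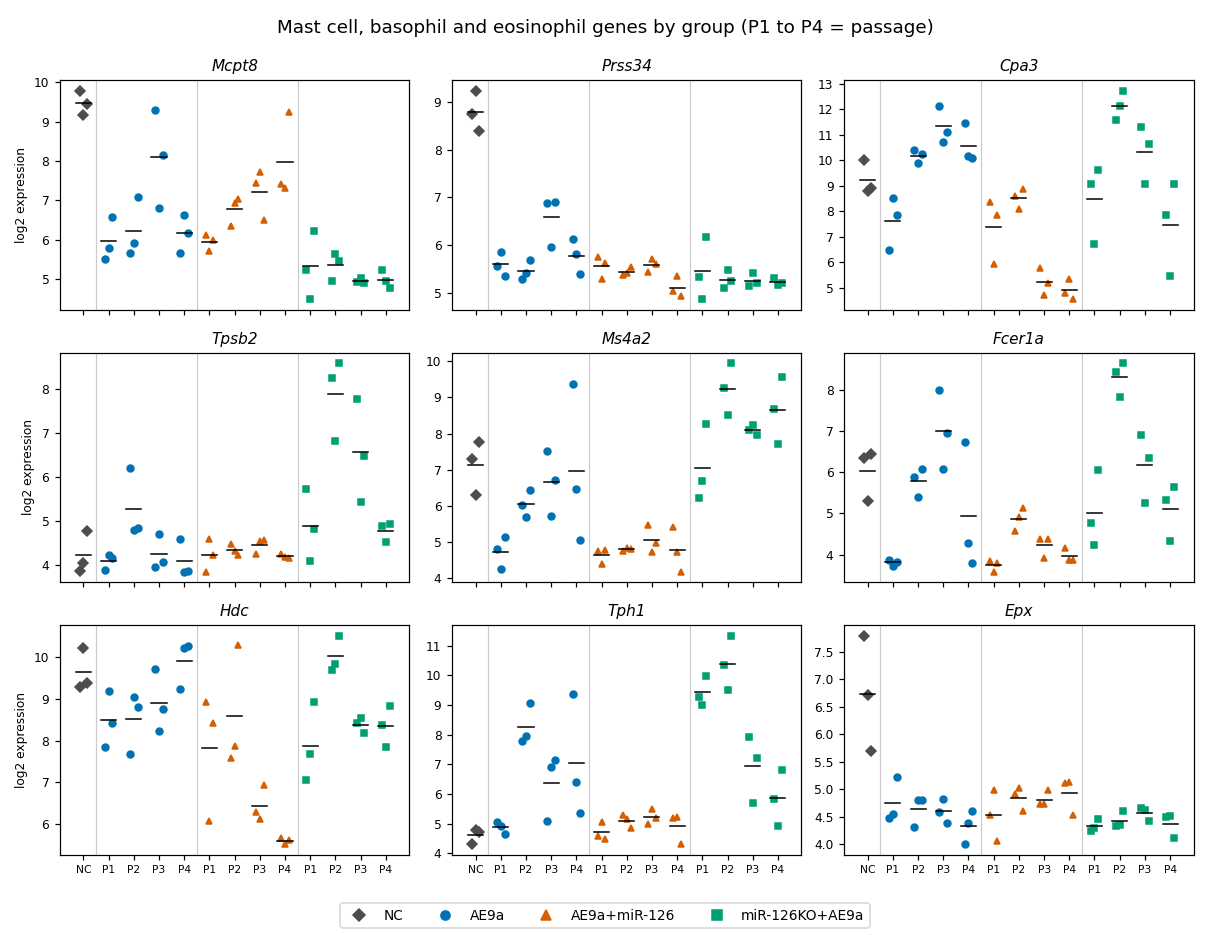
Log2 expression of the 9 genes in each of the 39 arrays, by group (NC, then passages P1 to P4 of each arm); points are mice and bars are group means of 3. Mcpt8, Prss34 and Epx are high in the normal controls, and 6 other genes peak in miR-126KO+AE9a at passage 2.

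The basophil and eosinophil granule genes separated leukaemia from normal donor cells. Prss34 read 8.74, 9.24 and 8.39 in the normal controls and 4.87 to 6.91 in the 36 leukaemia arrays, every one below every control. Epx read 7.79, 6.72 and 5.69 in the controls and 4.00 to 5.21 in the leukaemia arrays, again without overlap. Mcpt8 read 9.79, 9.18 and 9.44 in the controls, and 34 of the 36 leukaemia arrays lay below all of them. The 2 exceptions, within the control range, were AE9a passage 3 replicate 1 (9.30) and AE9a+miR-126 passage 4 replicate 3 (9.24). Levels of markers of other cells also lay apart between these groups. The mean level of 10 B cell markers was 7.45 to 8.04 in the controls and at most 6.66 in the leukaemia arrays. That of 8 erythroid markers averaged 7.58 in the controls and, at passage 1, 5.09 in AE9a, 5.06 in AE9a+miR-126 and 6.43 in miR-126KO+AE9a, and that of 9 megakaryocyte markers 6.30 against 5.51, 5.42 and 5.39 in the same order. Their part in the differences from the controls was not tested.

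At passage 1, the question was how each arm differed from normal donor cells; the 3 comparisons share the same 3 controls. In AE9a, 5 of the 9 genes fell and 0 rose, where 5.64% of all genes fell: Prss34 by 3.19 ± 0.26 (SE, n = 3 and 3; 9.12-fold, limma adjusted p = 1.27e-09), Mcpt8 by 3.51 ± 0.50 (11.4-fold, adjusted p = 3.37e-05), Ms4a2 by 2.38 ± 0.65, Fcer1a by 2.22 ± 0.53 and Epx by 1.99 ± 0.31. In AE9a+miR-126 the same 5 genes fell (5.18% of all genes fell), with Prss34 lower by 3.23 ± 0.26, Mcpt8 by 3.52 ± 0.50 and Epx by 2.21 ± 0.31. In miR-126KO+AE9a, 3 fell (5.91% of all genes), namely Mcpt8 (-4.15 ± 0.50), Prss34 (-3.33 ± 0.26) and Epx (-2.40 ± 0.31), and 1 rose (4.88% of all genes), Tph1. Ms4a2 differed from the controls by -0.07 ± 0.65 there (adjusted p = 0.97). The AE9a call of Ms4a2 (limma adjusted p = 0.0201) was lost without AE9a replicate 1 or 2 or control 1 or 3, with an adjusted p of up to 0.0947. Its AE9a+miR-126 call was lost without AE9a+miR-126 replicate 2 or control 3, up to 0.074.

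Eosinophil genes beyond Epx fell at passage 1 as well. Of 9 listed genes that were measured, 4 fell in AE9a, 5 in AE9a+miR-126 and 6 in miR-126KO+AE9a, and 0 rose. In the same order, 5.64%, 5.18% and 5.91% of all genes fell. Prg2, major basic protein, read 8.70, 7.79 and 7.49 in the controls and 4.41 to 6.33 in the 36 leukaemia arrays. It was lower by 2.12 ± 0.27, 2.53 ± 0.27 and 3.02 ± 0.27 in the 3 arms at passage 1. Alox15, a lipoxygenase of eosinophils and macrophages, fell by 1.38 ± 0.20, 1.41 ± 0.20 and 1.35 ± 0.20. The median difference of the 9 genes in AE9a was -0.77, beside 0.03 over all genes.

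At passage 4 the arms had parted. AE9a still had Mcpt8 (-3.31 ± 0.50), Prss34 (-3.00 ± 0.26) and Epx (-2.41 ± 0.31) below the controls (3 of 9, with 2.09% of all genes lower), and Tph1 was higher by 2.43 ± 0.67 (1 of 9, with 2.3% of all genes higher). The Tph1 call was lost without AE9a replicate 1 (1.27 ± 0.59, limma adjusted p = 0.3) and without any 1 of the controls. In miR-126KO+AE9a the same 3 genes were lower (3.63% of all genes): Mcpt8 by 4.48 ± 0.50, Prss34 by 3.56 ± 0.26 and Epx by 2.37 ± 0.31. In AE9a+miR-126, 7 of the 9 fell (14.5% of all genes), led by Cpa3 (-4.33 ± 0.74, 20.1-fold) and Hdc (-4.04 ± 0.61, 16.5-fold). Without the narrow-spread arrays, which leaves 1 AE9a+miR-126 array, Prss34, Cpa3, Hdc and Epx remained lower (Cpa3 -4.68 ± 1.15, Hdc -4.03 ± 0.81), and Ms4a2 (-2.94 ± 1.00), Fcer1a (-2.15 ± 0.83) and Mcpt8 (-0.23 ± 0.66) did not pass. The Mcpt8 call of -1.48 ± 0.50 was also lost without AE9a+miR-126 replicate 1 or 2 or control 1 (limma adjusted p up to 0.158).

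**Figure D2:**
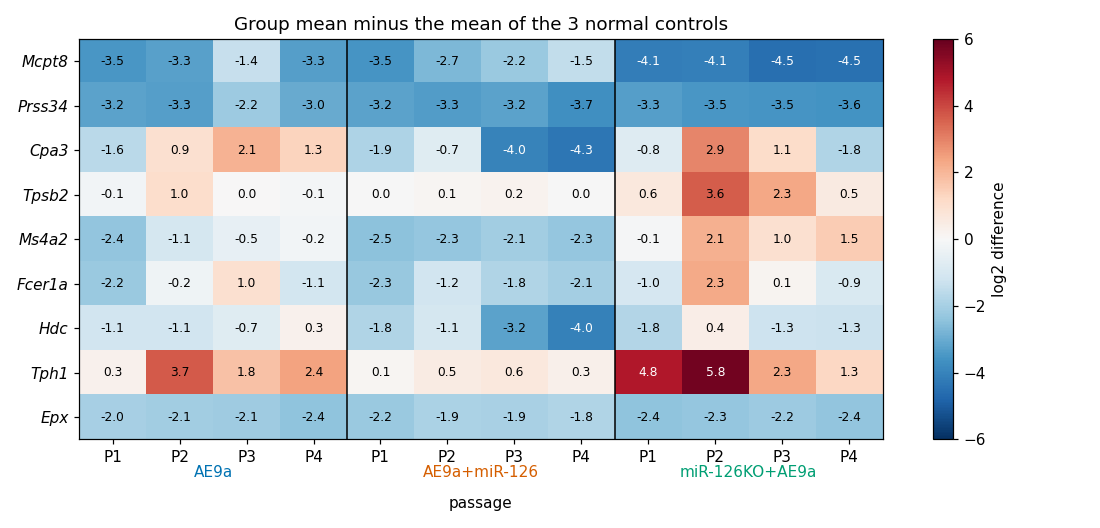
Mean of each leukaemia group minus the mean of the 3 normal controls, in log2 units, for the 9 genes (rows) and the passages of each arm (columns); red is higher and blue lower than the controls. Prss34 and Epx are blue in all 12 columns, and Tph1 is darkest red in miR-126KO+AE9a at passages 1 and 2.

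Among the leukaemia groups, Mcpt8 and Prss34 both had their highest mean in AE9a at passage 3, and they parted in AE9a+miR-126 at passage 4. Prss34 read 6.88, 5.96 and 6.91 in AE9a at passage 3. Mcpt8 in miR-126KO+AE9a read 5.24, 4.49 and 6.23 at passage 1 and 5.22, 4.96 and 4.78 at passage 4. In AE9a it read 5.52, 5.78 and 6.59 at passage 1, 9.30, 6.81 and 8.15 at passage 3 and 5.67, 6.63 and 6.17 at passage 4. In AE9a+miR-126 it read 5.72 to 6.12 at passage 1 and 7.40, 7.31 and 9.24 at passage 4. All 3 late AE9a+miR-126 arrays thus lay above all 3 early ones.

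That rise within AE9a+miR-126 was 2.04 ± 0.50 (4.1-fold, limma adjusted p = 0.00352), where 11.1% of all genes rose. It did not pass with the compared groups only. Without the narrow-spread arrays the value was 3.29, which rests on 1 passage 4 array, replicate 3 at 9.24. Prss34 in the same mice read 5.75, 5.29 and 5.63 at passage 1 and 5.04, 5.36 and 4.93 at passage 4 (-0.45 ± 0.26, adjusted p = 0.191). Against AE9a at passage 4, Mcpt8 was higher by 1.83 ± 0.50 (1 of 9 genes higher, 12.7% of all genes), a call lost without AE9a replicate 1 (1.58 ± 0.55, limma adjusted p = 0.0544). Averaged over the passages the difference from AE9a was 0.38 ± 0.25 (limma adjusted p = 0.196). Without the narrow-spread arrays it was 1.29 over passages 1, 2 and 4, with replicate 3 as the only AE9a+miR-126 array of passage 4. In miR-126KO+AE9a the average difference of Mcpt8 from AE9a was -1.45 ± 0.25 (2.74-fold, limma adjusted p = 0.00016) and that of Prss34 -0.55 ± 0.13. Thus 2 of the 9 genes fell, with 5.29% of all genes lower. Prss34 averaged 5.30 in miR-126KO+AE9a and 5.86 in AE9a, on either side of the median of all values, 5.52. At passage 3 the differences of Mcpt8 and Prss34 from AE9a were -3.14 ± 0.50 and -1.33 ± 0.26 (2 of 9, 0.649% of all genes lower). The Prss34 call was lost without AE9a replicate 1 (limma adjusted p = 0.0583). With the compared groups only, both passage 3 calls were lost.

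**Figure D3:**
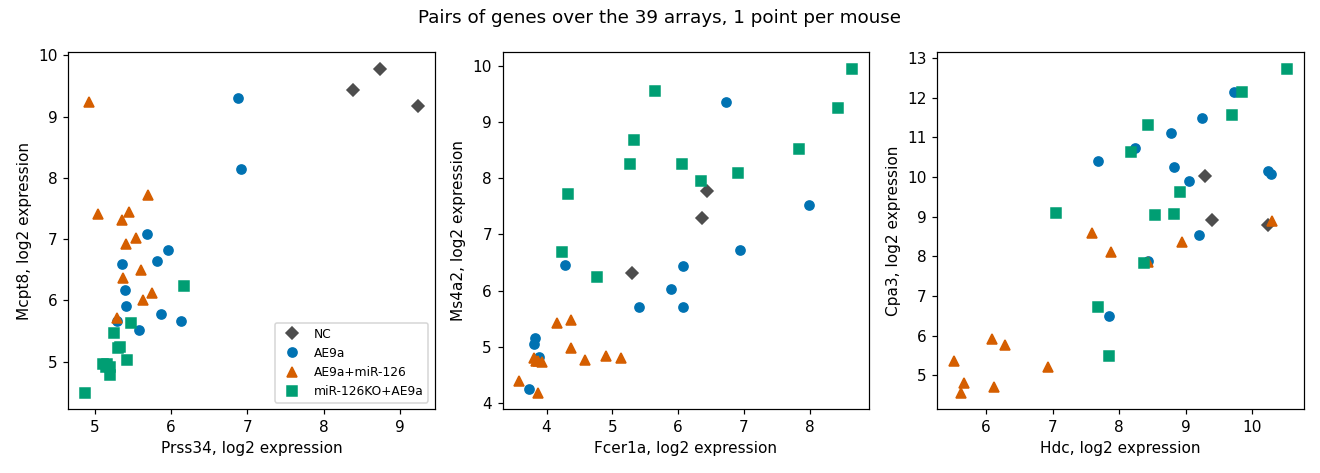
Pairs of genes over the 39 arrays, each axis log2 expression and each point a mouse: Mcpt8 by Prss34, Ms4a2 by Fcer1a and Cpa3 by Hdc. One AE9a+miR-126 array has Mcpt8 at 9.24 with Prss34 at 4.93, and AE9a+miR-126 arrays fill the low corner of the other 2 panels.

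Serotonin synthesis gave the sharpest difference of miR-126KO+AE9a at the first passage. Tph1 read 9.27, 9.01 and 9.99 there, against 5.05, 4.93 and 4.64 in AE9a and 4.32, 4.78 and 4.70 in the normal controls. At passage 2 it read 10.33, 9.51 and 11.34 in miR-126KO+AE9a and 7.80, 7.94 and 9.07 in AE9a. By passage 4 the knockout arm was at 5.84, 4.91 and 6.82, while AE9a ran from 5.35 to 9.36. The knockout arrays lay above all AE9a arrays at passages 1 and 2 and overlapped with them at passages 3 and 4.

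Tph1 was 4.82 ± 0.67 above the controls at passage 1 (28.3-fold, limma adjusted p = 8.26e-06) and 4.55 ± 0.67 above AE9a (23.4-fold, adjusted p = 0.000147). It was the only 1 of the 9 genes past the threshold against AE9a there, with 1.5% of all genes higher. Ms4a2 was 2.31 above AE9a without overlap (6.23 to 8.25 against 4.25 to 5.16) and did not pass. It passed with the compared groups only, the replicate block, the dim filter and the spread as a covariate, and not in the other settings. Tph1 changed with passage. From passage 1 to 4 Tph1 fell by 3.57 ± 0.67 in the knockout arm (1 of 9, 2.66% of all genes lower). The difference from AE9a changed by -5.73 ± 0.94 between these passages (adjusted p = 0.00238; 1 of 9, with 0.379% of all genes changed downward), and by -4.57 ± 0.79 without AE9a passage 4 replicate 1. Ddc, the decarboxylase of the next step of serotonin synthesis, read 7.16, 7.74 and 8.37 in miR-126KO+AE9a at passage 1, 5.76 to 5.96 in AE9a and 5.64 to 6.47 in the controls. It was higher than AE9a by 1.53 ± 0.15 on average over the passages (2.88-fold, limma adjusted p = 1.25e-07). Maob, which breaks down amines, was also higher on average (1.44 ± 0.22). Of the 9 measured genes of amine and lipid mediator synthesis 2 rose and 2 fell, where 2.88% of all genes rose and 5.29% fell. The 2 lower genes were Alox5 (-0.98 ± 0.30) and Ptgs2 (-1.25 ± 0.40). Ptgs2 did not pass without the narrow-spread arrays (limma adjusted p = 0.0706).

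The mast cell tryptase Tpsb2 had its highest group means in miR-126KO+AE9a at passages 2 and 3. It read 8.23, 6.82 and 8.58 at passage 2 and 7.76, 5.44 and 6.48 at passage 3, against 6.20, 4.81 and 4.84 and 3.97, 4.71 and 4.08 in AE9a. In the controls it read 3.87, 4.07 and 4.78 and in the 12 AE9a+miR-126 arrays 3.86 to 4.60. The knockout groups of passages 2 and 3 lay above the AE9a groups of the same passages without overlap.

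Over the 4 passages, 3 of the 9 genes were higher in miR-126KO+AE9a than in AE9a, where 2.88% of all genes were: Ms4a2 by 2.16 ± 0.33 (4.46-fold, limma adjusted p = 3.92e-05), Tpsb2 by 1.59 ± 0.22 (3.01-fold, adjusted p = 1.2e-05) and Tph1 by 1.51 ± 0.33 (2.86-fold, adjusted p = 0.00267). These 3 calls, and those of Mcpt8 and Prss34, stayed past the threshold without the narrow-spread arrays. At passage 2, Ms4a2 (3.18 ± 0.65), Tpsb2 (2.59 ± 0.44) and Fcer1a (2.51 ± 0.53) were higher (3 of 9, 1.18% of all genes). Without replicate 3 of the knockout arm, the narrow-spread array, Tpsb2 stayed past the threshold (2.24 ± 0.53) and Ms4a2 (2.83 ± 0.79, limma adjusted p = 0.0583) and Fcer1a (2.34 ± 0.66, adjusted p = 0.0598) did not. At passage 3 only Tpsb2 of the 9 was higher (2.31 ± 0.44, 0.401% of all genes). The Tpsb2 calls at passages 2 and 3 were lost with the compared groups only. At passage 4 Cpa3 was lower by 3.12 ± 0.74 (1 of 9, 1.03% of all genes lower). That call was lost when any array but miR-126KO+AE9a replicate 3 was left out, with values from -3.36 to -2.13 and limma adjusted p up to 0.289.

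**Figure D4:**
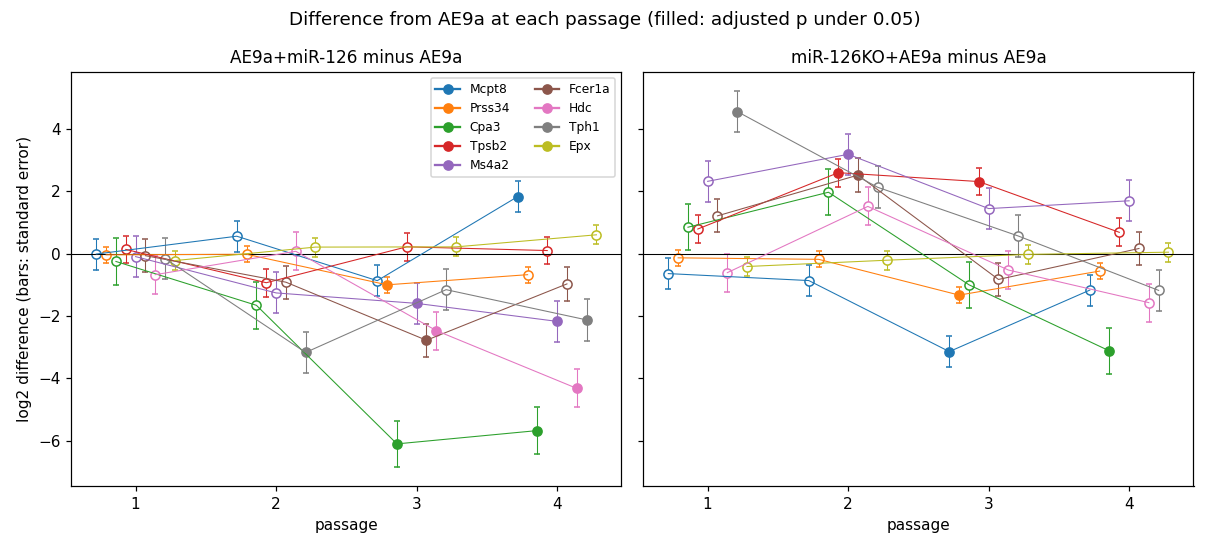
Difference of AE9a+miR-126 (left) and miR-126KO+AE9a (right) from AE9a at each passage, in log2 units with standard errors of the limma fit; filled points have an adjusted p under 0.05. On the left Cpa3 is at -6.10 at passage 3 and -5.67 at passage 4, and Hdc is at -4.32 at passage 4. Tph1 starts at 4.55 on the right.

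Other mast cell proteases were measured beside the members. Of 11 listed protease and granule genes, 3 rose in miR-126KO+AE9a against the controls at passage 1, where 4.88% of all genes rose. They were Mcpt1 (4.20 ± 0.51, 18.4-fold), Mcpt2 (3.61 ± 0.42, 12.2-fold) and Tpsab1 (1.99 ± 0.44). In AE9a and AE9a+miR-126 0 of the 11 passed in either direction at that passage, where 8.87% and 9.73% of all genes did. Mcpt1 and Mcpt2, proteases of mucosal mast cells, were highest on average at passage 1; Mcpt1 read 8.20, 8.17 and 6.24 there, then 4.56, 3.61 and 6.24 at passage 2. Tpsab1, a second tryptase, was highest at passage 2, at 8.32, 7.55 and 8.15 against 4.67, 4.76 and 4.89 in AE9a (3.23 ± 0.44, 9.4-fold, limma adjusted p = 0.000122).

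At passage 2, 4 of the 11 rose against AE9a, where 1.18% of all genes rose. Beside Tpsab1 these were Cma1, a chymase of connective tissue mast cells (2.29 ± 0.54), Slc18a2, the vesicular monoamine transporter (2.83-fold), and Mrgprb2, a mast cell receptor (1.40 ± 0.35). Replicate 3 stood out in this group, with Cma1 at 9.69 against 6.92 and 5.85 and Slc18a2 at 9.25 against 7.19 and 7.15, and it is the narrow-spread array. Without the narrow-spread arrays 2 of the 11 rose, where 0.717% of all genes did: Tpsab1 (3.16 ± 0.55) and Mrgprb2 (1.24 ± 0.32). Cma1 (1.19 ± 0.43, limma adjusted p = 0.155) and Slc18a2 (0.81 ± 0.40, adjusted p = 0.324) did not pass. On average over passages 4 rose and 2 fell, where 2.88% of all genes rose and 5.29% fell. Without the narrow-spread arrays 5 rose and 2 fell, where 4.36% of all genes rose and 7.7% fell. The 2 lower genes were Rab44 (-1.32 ± 0.24) and Gzmb (-1.13 ± 0.24), a protease also of cytotoxic lymphocytes. Tpsb2 and Tpsab1, and Mcpt1, Mcpt2, Mcpt4 and Cma1, are families of similar sequence, and how far their probes cross-detect was not tested.

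**Figure D5:**
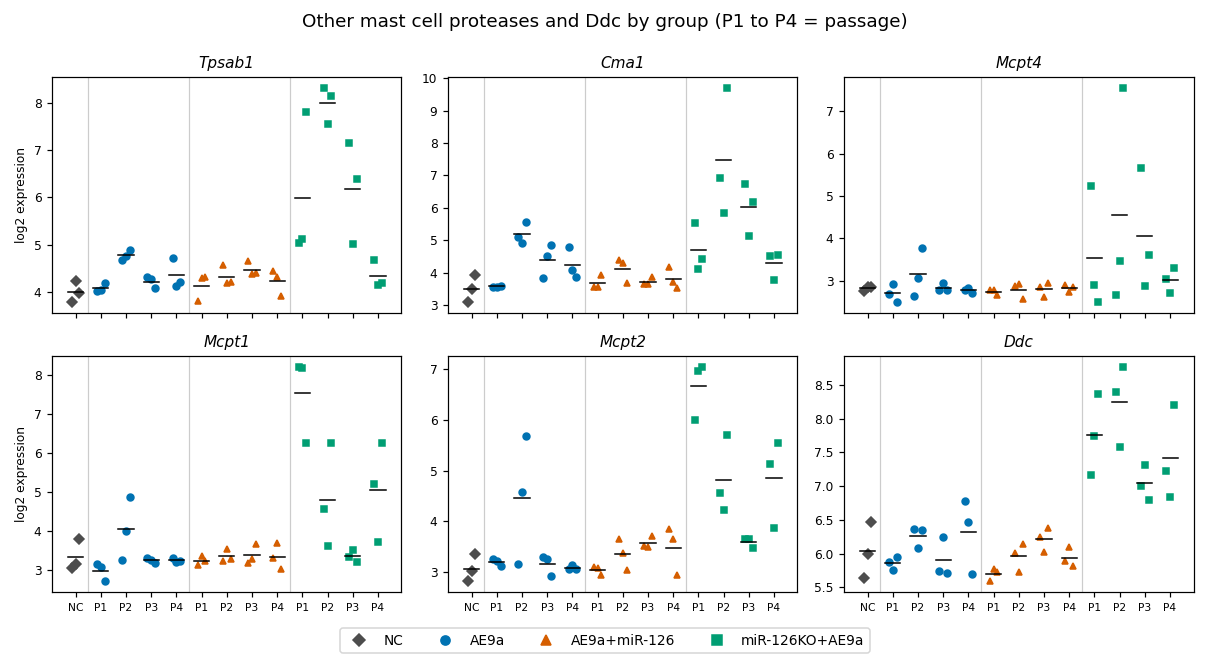
Log2 expression of 5 other mast cell proteases and of Ddc in each array by group (NC, then P1 to P4 of each arm); points are mice and bars are means of 3. Mcpt1 and Mcpt2 are highest in miR-126KO+AE9a at passage 1, and Tpsab1 and Cma1 at passage 2.

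Both chains of the high-affinity IgE receptor were low in AE9a+miR-126. Ms4a2 read 4.18 to 5.47 (median 4.78) in the 12 AE9a+miR-126 arrays, 4.25 to 9.36 (median 5.87) in the 12 of AE9a and 6.23 to 9.95 (median 8.25) in the 12 of miR-126KO+AE9a. All AE9a+miR-126 arrays were below all knockout arrays and below the 3 controls (7.29, 6.31 and 7.78). Fcer1a read 3.59 to 5.13 in AE9a+miR-126, 3.73 to 7.99 in AE9a, 4.24 to 8.65 in miR-126KO+AE9a and 6.36, 5.30 and 6.43 in the controls.

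In the knockout arm the chains parted with passage. Ms4a2 stayed between 7.71 and 9.95 in the 9 arrays of passages 2 to 4, whereas Fcer1a read 8.43, 7.83 and 8.65 at passage 2 and 5.32, 4.33 and 5.65 at passage 4. The average difference of Fcer1a from AE9a did not pass (0.76 ± 0.27, limma adjusted p = 0.0761). In AE9a both chains ran lowest at passage 1, where Ms4a2 read 4.82, 4.25 and 5.16 and Fcer1a 3.88, 3.73 and 3.83. At passage 4 replicate 1 of AE9a stood apart, with Ms4a2 at 9.36 and Fcer1a at 6.73 against 6.46 and 5.05 and 4.28 and 3.81 in replicates 2 and 3. Tph1 showed the same array apart, at 9.36 against 6.40 and 5.35.

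Of the listed signalling genes downstream of the receptor, 11 were measured. In AE9a+miR-126 against AE9a 7 of them fell and 0 rose on average over the passages, where 24.3% of all genes fell and 30.7% rose, with a median of -0.86 beside 0.08 over all genes. Without the narrow-spread arrays 3 of the 11 fell, where 2.33% of all genes fell, with a median of -0.23. The 7 included the adaptors Lcp2 (-0.94 ± 0.07) and Lat (-1.23 ± 0.16) and the kinase Syk (-0.98 ± 0.16). Of these, Lcp2 (-0.61 ± 0.10) and Lat (-1.01 ± 0.20) stayed past the threshold without the narrow-spread arrays and Syk (-0.33 ± 0.16) did not. In miR-126KO+AE9a 1 rose, the kinase Fyn (1.08 ± 0.18), and 1 fell, the phospholipase Plcg1 (-0.48 ± 0.13). Of all genes 2.88% rose and 5.29% fell. Without the narrow-spread arrays 2 rose and 2 fell, where 4.36% of all genes rose and 7.7% fell. Of 12 measured receptor and cytokine genes 6 fell in AE9a+miR-126 (24.3% of all genes fell). Their median was -0.46, and -0.32 without the narrow-spread arrays. Among the 6 were Csf2rb2, which encodes a beta chain of the interleukin 3 receptor (-2.02 ± 0.20), Fcer1g, the gamma chain shared by Fc receptors (-0.91 ± 0.17), and Kit, the receptor for stem cell factor (-0.93 ± 0.21). Csf2rb2 (-0.85 ± 0.21) and Fcer1g (-0.37 ± 0.11) passed without the narrow-spread arrays, and Kit (-0.29 ± 0.29) did not. In miR-126KO+AE9a 1 of the 12 differed on average, the granule membrane protein Cd63 (-2.39 ± 0.25), where 8.17% of all genes differed. Without the narrow-spread arrays 2 fell and 1 rose, where 7.7% of all genes fell and 4.36% rose.

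Cpa3 and Hdc gave the deepest differences of AE9a+miR-126 from AE9a among the 9 genes at passage 4 and on average over the passages. Cpa3 read 8.36, 5.92 and 7.86 at passage 1, 8.60, 8.10 and 8.88 at passage 2, 5.77, 4.71 and 5.21 at passage 3 and 4.81, 5.35 and 4.56 at passage 4 in AE9a+miR-126. In AE9a it read 6.49, 8.54 and 7.87 at passage 1 and then 9.89 to 12.14 in the 9 later arrays. The arms overlapped at passage 1 and were apart at passages 2, 3 and 4. In miR-126KO+AE9a Cpa3 read 11.57, 12.14 and 12.74 at passage 2 and 7.84, 5.47 and 9.05 at passage 4.

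Hdc in AE9a+miR-126 read 8.94, 6.08 and 8.44 at passage 1, 7.59, 7.88 and 10.29 at passage 2, 6.29, 6.12 and 6.93 at passage 3 and 5.67, 5.52 and 5.62 at passage 4. In AE9a it read 7.85, 9.20 and 8.44 at passage 1, 7.68, 9.04 and 8.82 at passage 2 and 9.24, 10.24 and 10.28 at passage 4. The arms overlapped at passages 1 and 2, with a difference of 0.07 ± 0.61 at passage 2, and all passage 4 arrays of AE9a+miR-126 lay below all of AE9a. Replicate 3 of AE9a+miR-126 at passage 4, whose spread was not narrow (SD 2.01), read 4.56 for Cpa3 and 5.62 for Hdc, as low as the 2 narrow-spread arrays of its group.

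At passage 1, AE9a+miR-126 differed from AE9a in 0 of the 9 genes, where 0.0316% of all genes differed in either direction by limma. At passage 2 Tph1 was lower by 3.17 ± 0.67 (1 of 9, 5.68% of all genes lower; -3.40 ± 1.01 without the narrow-spread arrays, limma adjusted p = 0.0783). At passage 3, 5 of the 9 fell (24.8% of all genes): Cpa3 by 6.10 ± 0.74 (68.4-fold), Fcer1a by 2.78 ± 0.53, Hdc by 2.47 ± 0.61, Ms4a2 by 1.59 ± 0.65 and Prss34 by 1.00 ± 0.26. All 3 AE9a+miR-126 arrays of passage 3 had the narrow spread, and the median difference of all genes was 0.12 there and 0.13 at passage 4. The Ms4a2 call was lost without any 1 of AE9a replicates 1 and 3 and AE9a+miR-126 replicates 2 and 3 (limma adjusted p up to 0.177). With cyclic loess, and with the array spread as a covariate, the calls of Ms4a2 and Hdc were lost. That of Prss34 was lost with the array spread as a covariate.

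At passage 4, 4 of the 9 fell (12% of all genes): Cpa3 by 5.67 ± 0.74 (50.9-fold, limma adjusted p = 2.45e-06), Hdc by 4.32 ± 0.61 (19.9-fold, adjusted p = 6.78e-06), Ms4a2 by 2.17 ± 0.65 and Tph1 by 2.12 ± 0.67. Cpa3 and Hdc stayed past the threshold without the narrow-spread arrays (-6.02 ± 1.15 and -4.30 ± 0.81), and Ms4a2 and Tph1 did not. Without AE9a replicate 1, Ms4a2 was lower by 0.97 ± 0.56 and Tph1 by 0.96 ± 0.59 (limma adjusted p = 0.228 and 0.257). The Ms4a2 call was also lost without AE9a+miR-126 replicate 2, and the Tph1 call without AE9a+miR-126 replicate 1 or 2.

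Averaged over the 4 passages, 6 of the 9 genes were lower in AE9a+miR-126 than in AE9a, where 24.3% of all genes were lower. Cpa3 was lower by 3.42 ± 0.37 (10.7-fold, limma adjusted p = 3.6e-08), Hdc by 1.85 ± 0.30, Tph1 by 1.65 ± 0.33, Ms4a2 by 1.28 ± 0.33, Fcer1a by 1.18 ± 0.27 and Prss34 by 0.43 ± 0.13. Tpsb2 differed by -0.12 with a 95% interval of -0.57 to 0.33, and Epx by 0.20 with an interval of -0.11 to 0.51. Without the narrow-spread arrays this average covers passages 1, 2 and 4 in both arms, with 1 AE9a+miR-126 array each at passages 2 and 4. Passage 3, where Cpa3 differed by -6.10 and Fcer1a by -2.78, is left out. The average was then -2.52 for Cpa3, -2.10 for Tph1 and 1.29 for Mcpt8. Hdc (-1.07 ± 0.43), Ms4a2 (-1.37 ± 0.53), Fcer1a (-0.60 ± 0.44) and Prss34 (-0.27 ± 0.21) did not pass there.

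For Cpa3 and Hdc, AE9a+miR-126 and AE9a moved apart from passage 1 to 4. In AE9a Cpa3 rose by 2.94 ± 0.74 from passage 1 to 4 (7.69-fold, limma adjusted p = 0.0227; 1 of 9, 2.02% of all genes rose). This was lost without AE9a passage 1 replicate 1 or 3 or passage 4 replicate 1 (adjusted p up to 0.185). In AE9a+miR-126 Cpa3 fell by 2.47 ± 0.74 and Hdc by 2.22 ± 0.61 (2 of 9, 13.2% of all genes fell). Both calls were lost without the narrow-spread arrays (-2.82 ± 1.15 and -2.20 ± 0.81) and without passage 1 replicate 1 or 3; that of Cpa3 was also lost without passage 4 replicate 1 (limma adjusted p up to 0.104). The change of the difference between the arms passed for both genes, at -5.42 ± 1.05 for Cpa3 (adjusted p = 0.00155) and -3.64 ± 0.86 for Hdc (adjusted p = 0.00819), 2 of 9 where 5.94% of all genes changed downward. They were -5.76 and -3.63 without the narrow-spread arrays, which leaves 1 AE9a+miR-126 array at passage 4. With the array spread as a covariate the Cpa3 change passed and the Hdc change did not. Mcpt8 changed in the other direction, by 2.63 with that covariate (limma adjusted p = 0.0412) and by 3.10 without the narrow-spread arrays. It was not called in the fit of all groups.

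Alox5, which starts leukotriene synthesis, fell beside Hdc. It read 9.72, 7.36 and 9.19 in AE9a+miR-126 at passage 1 and 4.54, 4.54 and 4.77 at passage 4, against 10.15 to 10.56 in AE9a at passage 4. On average it was lower than AE9a by 2.72 ± 0.30 (6.6-fold), and its partner Alox5ap by 1.43 ± 0.14. Of the 9 measured mediator genes 6 fell and 0 rose in this comparison, with a median of -0.82, where 24.3% of all genes fell. Leaving out the narrow-spread arrays gave a median of -0.56, with Alox5 at -1.87 and Alox5ap at -0.61.

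Among 12 transcription factors of these lineages, 7 fell and 1 rose in AE9a+miR-126 against AE9a, where 24.3% of all genes fell and 30.7% rose. The median of the 12 was -0.37, and -0.02 with the arrays of narrow spread left out. Bhlhe40 was at -1.47 and Myb at 1.62 there. Gata2, which is needed for mast cells and basophils, was lower by 1.16 ± 0.26, Mitf, a regulator of mast cell proteases, by 0.66 ± 0.13 and Bhlhe40 by 1.37 ± 0.16, and Myb, a progenitor factor, was higher by 2.44 ± 0.20. Gata2 (-0.79 ± 0.40) and Mitf (-0.65 ± 0.21) did not pass without the narrow-spread arrays. In miR-126KO+AE9a 2 rose, Mitf by 0.73 ± 0.13 and Gata1 by 0.71 ± 0.14, where 2.88% of all genes rose. Without the narrow-spread arrays 3 rose, where 4.36% of all genes did. Mitf read 9.40, 8.64 and 9.09 in the knockout arm at passage 1, 7.57, 7.17 and 7.90 in AE9a and 6.60, 6.85 and 6.77 in the controls. Its rise over the controls was 2.30 ± 0.27 (limma adjusted p = 5.66e-07).

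Markers of other marrow cells moved in the same samples, and their part in these differences was not tested. Against AE9a, 11 of 12 neutrophil markers fell on average in AE9a+miR-126, where 24.3% of all genes fell, and 12 of 12 in miR-126KO+AE9a, where 5.29% did. The median of the neutrophil markers in AE9a+miR-126 was -2.01, and -1.35 without the narrow-spread arrays. In miR-126KO+AE9a all 12 also fell without them, where 7.7% of all genes did. The mean level of that list was 6.75 to 6.97 in AE9a+miR-126 at passage 4, 10.91 to 11.39 in AE9a at passage 4 and 11.77 to 11.93 in the controls. Monocyte and macrophage markers fell in 8 of 11 cases in AE9a+miR-126, with a median of -0.90 (-0.60 without the narrow-spread arrays). In miR-126KO+AE9a 3 of the 11 rose, where 2.88% of all genes rose. Without the narrow-spread arrays 5 rose there, where 4.36% of all genes did. Of 8 erythroid markers 5 rose in miR-126KO+AE9a, where 2.88% of all genes rose (5 without the narrow-spread arrays, where 4.36% did). In AE9a+miR-126 3 of the 8 fell, where 24.3% of all genes fell. The median of the 8 there was -0.18, and -0.39 without the narrow-spread arrays. Stroma and endothelium markers had mean levels of 5.35 to 5.82 over the leukaemia arrays and 5.50 to 5.73 in the controls.

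Likeness of pattern was measured as Pearson's r over the 13 group means, as a description, among 9862 genes whose group means spanned at least 1. Groups share arms and passages, so the points are not independent. Tpsb2 was most like Mcpt4 (0.97), Cma1 (0.97) and Tpsab1 (0.94). Hdc was most like Alox5 (0.94) and Cd55 (0.94), Cpa3 like Pmm1 (0.90), Prkab1 (0.87) and Hdc (0.86), and Fcer1a like Slamf1 (0.92) and Cyp11a1 (0.91). Ms4a2 was most like Prxl2a (0.97) and Septin8 (0.97), Tph1 like Isg15 (0.93) and Gask1b (0.92), Mcpt8 like Mfsd13a (0.92), Prss34 like Fcrla (0.93) and Epx like Fbxo10 (0.97).

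Among the members, r over the 13 group means was 0.74 for Mcpt8 with Prss34 and 0.49 over the 12 leukaemia groups alone. For Cpa3 with Hdc it was 0.86 and 0.89, and for Ms4a2 with Fcer1a 0.76 and 0.76. Within groups, the deviations of the 39 arrays from their group means correlated at 0.86 for Ms4a2 with Fcer1a and 0.67 for Cpa3 with Fcer1a. Within a group, arrays that read higher for one receptor chain thus tended to read higher for the other.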

How the data were processed

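Each of 39 mice gave 1 array. The deposited values are log2 expression for 27037 probe sets, made by the authors with RMA and Partek 6.0, per the submitters' processing notes; RMA sets arrays to one intensity distribution and summarises each probe set. Any filter or batch step of the authors is not stated in the labels. Groups came from the array titles. Probe sets with 1 annotated symbol were kept (23521 of 27037), and for 1082 genes with several the one with the highest mean, giving 22180 genes.

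One linear model held all arrays, with 13 group means, in limma 3.58.1 (R 4.3.3, 26 residual degrees of freedom), using the empirical Bayes test and Benjamini-Hochberg adjustment over the 22180 genes of each of 21 comparisons. Genes with an adjusted p under 0.05 are said to have risen or fallen, whatever their fold. A ± is the standard error of the fit. Members and gene lists were chosen with earlier results of these data known. All 9 members were named, from each list up to 4 genes with the smallest adjusted p, and for each member up to 4 genes of the most similar pattern. Of 154 other listed symbols 137 were measured. Correlations between arrays of a group were 0.885 to 0.992, and 0 pairs of arrays were identical. Sequences came from RefSeq (GRCm38.p6). The fits were tested on simulated data. The alternatives were the compared groups alone, a replicate block, all probe sets, a filter on dim genes, a trended and robust prior, cyclic loess, the array spread as a covariate, leaving out narrow-spread arrays and leaving out each array.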

Additional observations from a re-analysis of the deposited data

Results flagged for a closer look

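The difference between AE9a+miR-126 and AE9a was not the same at passages 1 and 4 for 2 of the 9 genes, by a test of that change in limma. It changed by -5.42 ± 1.05 for Cpa3 (adjusted p = 0.00155) and by -3.64 ± 0.86 for Hdc (adjusted p = 0.00819). With the array spread as a covariate the change of Hdc did not pass. The change of Mcpt8, not called in the fit of all groups, then passed in the other direction (2.63, limma adjusted p = 0.0412). Without the narrow-spread arrays the Mcpt8 change was 3.10, which rests on 1 AE9a+miR-126 array at passage 4. The difference between miR-126KO+AE9a and AE9a changed by -5.73 ± 0.94 for Tph1 (limma adjusted p = 0.00238). Cpa3 and Hdc went from overlap between the arms at passage 1 to separation at passage 4, and Tph1 from separation to overlap.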

How the results depend on the processing

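Of 66 calls of members over the comparisons, all 66 stayed past the threshold with all probe sets, the filter on dim genes, the replicate block and the trended and robust prior, 62 with cyclic loess, 56 with the spread as a covariate and 54 with the compared groups only. Without narrow-spread arrays 18 of the 32 calls that use them and could still be fitted stayed. AE9a+miR-126 calls from the passage where all arrays of that arm had the narrow spread could not be fitted and are not counted. When arrays were left out in turn, 573 of 612 stayed. In these settings 0 of the calls reversed. The share of all genes called for AE9a+miR-126 on average went from 55.1% to 35.5% with cyclic loess, 12.7% with the spread as covariate, and to 4.43% without narrow-spread arrays.

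The counts of called members that differed from the fit of all groups by a factor of over 1.5 were as follows. The share of all genes called also changed with the setting, as given above for AE9a+miR-126 on average. These counts are therefore not read as results about the members. With the compared groups only, AE9a+miR-126 against AE9a gave 3 at passage 2 (1 in the fit of all groups) and 2 at passage 4 (5), AE9a+miR-126 from passage 1 to 4 gave 1 (3), and miR-126KO+AE9a against AE9a gave 2 at passage 1 (1), 0 at passage 3 (3) and 0 at passage 4 (1). With cyclic loess, AE9a+miR-126 gave 3 at passage 3 (5) and 1 from passage 1 to 4 (3). With the spread as a covariate these were 2 and 1, AE9a+miR-126 at passage 4 gave 3 (5), miR-126KO+AE9a at passage 1 gave 2 (1), and AE9a from passage 1 to 4 gave 3 (1). The dim filter gave 3 for AE9a from passage 1 to 4 and 2 for miR-126KO+AE9a at passage 1. Without narrow-spread arrays, AE9a+miR-126 gave 4 against the controls at passage 4 (7), 3 on average (6), 1 from passage 1 to 4 (3), 0 at passage 2 (1) and 3 at passage 4 (5), and miR-126KO+AE9a gave 1 at passage 2 (3). The cause was not tested.

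Leaving out 1 array gave 0 to 3 for AE9a from passage 1 to 4, 1 to 3 for AE9a+miR-126 from passage 1 to 4, 1 to 2 for the change of the knockout difference, 2 to 6 for AE9a+miR-126 at passage 4, 1 to 4 for miR-126KO+AE9a at passage 2 and 0 to 1 at passage 4. The replicate block, from the numbers in the titles, gave 2 for AE9a from passage 1 to 4 (1), 2 for miR-126KO+AE9a at passage 1 (1) and 2 for the change of the knockout difference (1). Deviations of same-numbered arrays correlated at a median of -0.02 (-0.67 to 0.63), and 2 of 78 pairs of groups had all 3 over 0.1, so the numbers were not taken as pairs.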

Other observations

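Gzmb, granzyme B, and Siglecf, a surface lectin of eosinophils and some macrophages, rose with passage in AE9a while Prg2 fell. From passage 1 to 4 Gzmb rose by 3.89 ± 0.49 (14.8-fold, limma adjusted p = 1.47e-05) and Siglecf by 2.43 ± 0.44 (5.39-fold, adjusted p = 0.00125), and Prg2 fell by 1.32 ± 0.27 (2.5-fold, adjusted p = 0.00344). Lat, an adaptor of T cells, natural killer cells and mast cells, rose by 2.01 ± 0.32 in the same comparison (4.03-fold, adjusted p = 0.000286). The mean level of T and NK cell markers averaged 6.54 in AE9a at passage 4, 5.63 at passage 1 and 6.30 in the normal controls; its part in these rises was not tested.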
